A study of Mus musculus with 6 samples.

Results

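The genes described here encode ion channels of 6 symbol families, potassium channels (symbols beginning with Kcn), transient receptor potential (TRP) channels of the Trpc, Trpm and Trpv groups, voltage-gated calcium channels (Cacna, Cacnb and Cacng), chloride channels and exchangers of the Clcn (CLC) family, chloride intracellular channels (Clic) and voltage-gated sodium channels (Scn), with their accessory subunits. They were taken by symbol alone, which found 167 of the 35237 genes of the FPKM table and 168 of the 36536 entries of the ALEXA-Seq table, where the same 167 symbols occur and Kcnh8 has 2 entries listed at 0. The study compared mouse bone marrow-derived monocytes (BMDM) with brainstem microglia (BSM), the resident macrophages of the brain, to find transcripts that tell both cell types apart. RNA-Seq was analysed for 3 BMDM and 3 BSM libraries, each from cells sorted by FACS from a pool of mice. All mice were C57BL/6, were 6 weeks of age, and the labels name no agent given to them and no introduced allele. By the labels, the mice of replicate 1 were male in both cell types and those of replicates 2 and 3 were female, as in a supplementary list of the study, whereas its main text names male mice. According to the study, sorted BMDM carried CD11b and CD115 and lacked Ly6G, and sorted BSM carried CD11b, had low CD45 and lacked Ly6G. The RNA yield was low, and cDNA was made by Ovation amplification.

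Ion channels are membrane proteins that let ions pass along their gradients, and in macrophages and microglia they set the membrane potential, the calcium entry and the acidity of endosomes and lysosomes. Potassium channels are built from pore subunits, and accessory subunits change their gating and transport to the membrane. Inward rectifiers hold the cell near its resting potential, tandem-pore channels carry a leak current, and calcium-activated channels open when intracellular calcium rises. In microglia, potassium channels are known for their part in resting potential, motility of processes and release of cytokines.

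FPKM are fragments scaled by transcript length and by mapped reads, so levels of different genes can be compared, and all FPKM below are given in the order of replicates 1, 2 and 3. How many reads lie behind a value is unknown, since neither table holds counts. The FPKM of all genes summed to between 163199 and 194184 in BMDM and between 68288 and 75021 in BSM. The median log2 fold change (BMDM minus BSM) of the 6364 genes that reached an FPKM of 3 in any library was 0.81, and quantile normalization moved it to 0.014. A log2 fold change of a single gene has to be read against that shift. In each cell type the markers of its label were abundant: summed over 9 microglial genes the FPKM was 895 to 1014 in BSM and 36.7 to 40.9 in BMDM, and summed over 7 monocyte genes it was 534 to 581 in BMDM and 0.725 to 1.58 in BSM. Neuronal markers with an entry, 9 of 11, summed to at most 0.343 in BSM and 0.0969 in BMDM, and Stmn2, Gad1, Slc17a7 and Slc17a6 were listed at 0 in all BSM libraries. Astrocyte markers summed to 5.36 to 9.54 in BSM, of which Slc1a3 made up 5.18 to 9.51, while Gfap was listed at 0 in all 6 libraries. Markers of granulocytes summed to 145.8 in BMDM replicate 2, against 13.4 as the lowest BMDM value and 0.107 as the highest BSM value, so that this library stood apart from the other BMDM libraries.

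BSM replicate 1 stood apart from the other BSM libraries in ion channel genes, and whether it did so equally over all genes was not counted. Among the 25 ion channel genes that reached an FPKM of 1 in any library, it lay below both other BSM libraries in 15 and above both in 7. The distance was more than 2-fold below both others in 10 genes (Clcn5, Clic1, Clic4, Kcnab2, Kcnd1, Kcnj10, Kcnj13, Kcnk13, Trpm7 and Trpv2), and more than 2-fold above both in 4 (Cacnb2, Clcn6, Clcn7 and Kcnma1). It is also the only male BSM library. The study lists its RNA with an integrity value far below that of every other library, and with the lowest concentration. It had 133 ion channel genes listed at 0, against 91 and 87 in the other BSM libraries and 75, 121 and 98 in BMDM. Sex, RNA quality and library cannot be told apart here. Values without it are given where they matter.

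By FPKM, most ion channel genes were at very low levels in both cell types. Most genes of the FPKM table also stayed under 1. Of 35237, 21167 were above 0 in some library, 9637 reached 1 and 6364 reached 3. Of the 167 genes, 45 were listed at 0 in all 6 libraries, 77 had a highest FPKM above 0 and under 0.1, and 20 had a highest FPKM between 0.1 and 1. A highest FPKM of 1 to 3 was found for 9 genes and one of at least 3 for 16, of which 5 reached 10 (Trpm7, Kcnj2, Cacnb2, Kcnrg and Kcnj13). An exact 0 in an FPKM table can be a failed estimate, so such a gene is said here to be listed at 0. Among the 39 voltage-gated potassium channel genes 13 were listed at 0 throughout and only Kcnd1 reached 1, and none of the 10 pore genes and 4 accessory genes of sodium channels did. By contrast, 5 of the 9 CLC genes and 4 of the 21 TRP channel genes reached 1. The levels of Kcnh6 and Trpm1, both chosen after their values were seen, differed between the tables. Kcnh6 was at most 0.00582 in FPKM. In ALEXA-Seq it was at 8.90, 30.3 and 11.2 in BMDM and 26.7, 18.8 and 10.8 in BSM. Trpm1, listed at 0 in FPKM, had ALEXA-Seq values of 6.07, 6.36 and 5.85 in BMDM. In BSM they were 10.5, 14.1 and 12.2, without overlap.

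Summed over the 167 genes, the FPKM was 99.96, 80.6 and 93.6 in BMDM and 99.7, 113.6 and 102.0 in BSM. The ranges of the cell types overlapped only through BMDM replicate 1, which lay just above BSM replicate 1. As a share of the FPKM of all genes this was 0.0613%, 0.0415% and 0.0539% in BMDM and 0.144%, 0.151% and 0.149% in BSM. The share was higher in every BSM library, and the all-gene sum by which it is divided was lower there. Makeup also differed. TRP channels gave the largest class sum in BMDM (34.4, 28.2 and 31.5, against 12.2, 25.3 and 21.5 in BSM). Most of each sum was Trpm7 alone, at 30.3, 22.7 and 26.9 in BMDM and 8.10, 19.9 and 16.9 in BSM. Inward rectifiers were the largest class in all BSM libraries (24.7, 31.1 and 25.9, against 20.0, 8.71 and 11.3 in BMDM). Without Kcnj13, whose level is uncertain, they summed to 24.6, 20.2 and 19.2 in BSM and lay below TRP channels in replicates 2 and 3. CLIC genes summed to 8.31, 11.96 and 12.2 in BMDM and to 0.667, 3.23 and 3.22 in BSM, while CLC genes summed to 12.4, 9.79 and 12.4 in BMDM and to 18.9, 17.0 and 17.9 in BSM. In each of these 4 classes the libraries of BMDM and BSM did not overlap, which held for most other classes too. Among all single genes that reached an FPKM of 3 in any library, it held for 66.8%, and sums over other groups of genes were not made. In bulk RNA, fewer cells with a transcript and less of it per cell cannot be told apart.

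**Figure D1:**
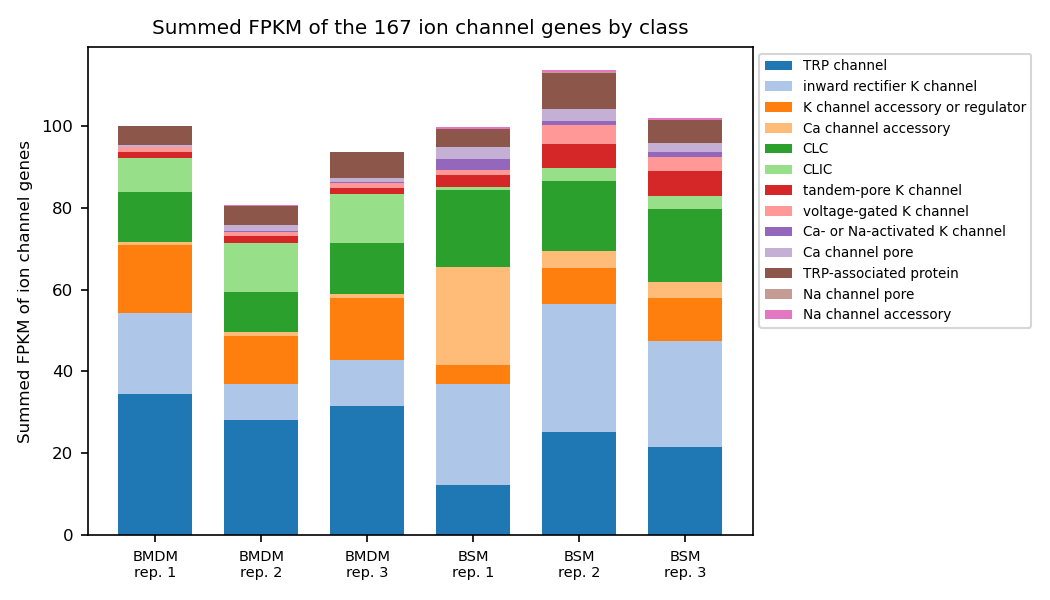
Stacked bars of the summed FPKM of the 167 ion channel genes in each library, coloured by class, with BMDM replicates 1 to 3 on the left and BSM replicates 1 to 3 on the right. TRP channels are the tallest segment in BMDM, the segment of calcium channel accessory genes is largest in BSM replicate 1 (23.9), and CLIC genes are a visible segment mainly in BMDM.

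Of the 167 ion channel genes, 16 reached an FPKM of 3 in some library and entered the limma fit across 6364 genes. The minimum was reached in BMDM only by 4 of them, in BSM only by 5 and in both cell types by 7, and a gene that reaches it in 1 cell type only is chosen in part for its difference. In that fit 10 of the 16 had a Benjamini-Hochberg adjusted p-value under 0.05, where 54.5% of all tested genes did. Of these 10, 8 were among the 9 genes that reached the minimum in 1 cell type only, and 2, Kcnj2 and Clcn4-2, were among the 7 that reached it in both. The 4 that were higher in BMDM were Kcne3, Clic4, Kcnab2 and Clic1, in a direction shown by 45.3% of all tested genes. The 6 that were higher in BSM were Clcn4-2, Trpm2, Kcnk6, Kcnj2, Kcnd1 and Cacnb2, in a direction shown by 9.22% of all tested genes. The median log2 fold change of the 16 was -0.31, beside 0.81 for all tested genes. Quantile normalization gave medians of -1.05 and 0.014, and 4 ion channel genes were higher in BMDM (21.5% of all tested genes) and 9 in BSM (19.4%). Scaling every library to the same sum gave 2 (15.3%) and 9 (24.9%), and upper quartile scaling gave 3 (21.9%) and 9 (15.8%). Libraries did not overlap for 12 of the 16 genes, as for 66.8% of all tested genes, with BMDM above BSM in 5 (background 55.2%) and BSM above BMDM in 7 (background 11.6%). The exact permutation test of 3 against 3 libraries cannot give a two-sided p-value under 0.1, so single genes were tested only in the fit across all genes.

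**Figure D2:**
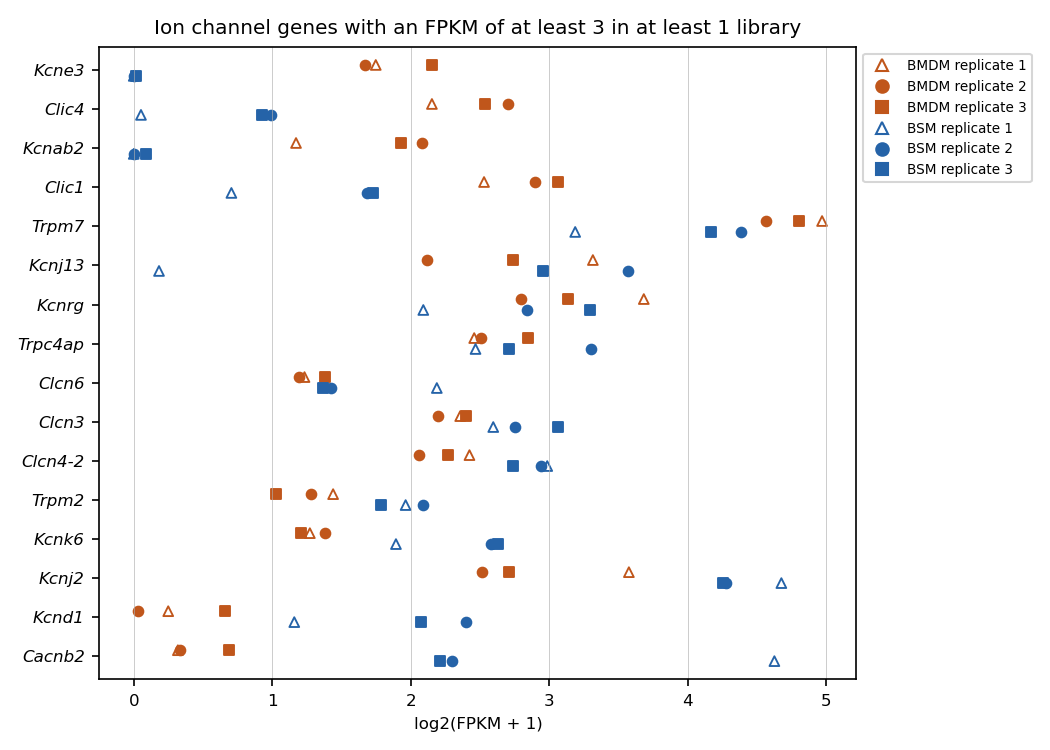
Expression of the 16 ion channel genes that reached an FPKM of 3 in any library, as log2(FPKM + 1) on the x axis, with 1 symbol per library (BMDM in orange, BSM in blue, open triangles for the male replicate 1). Genes are ordered from the highest to the lowest log2 fold change, and the open blue triangle of BSM replicate 1 lies far from the other BSM symbols for Kcnj13, Trpm7, Clic1, Clic4 and Cacnb2.

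The ALEXA-Seq table is a separate quantification of the same libraries by the authors, treated here as linear, so it is not independent evidence. The 6364 genes with the highest values in it included 14 ion channel genes, of which 9 passed limma with the Benjamini-Hochberg adjustment, where 47.9% of all tested genes did. Clic1, Clic4 and Kcne3 were higher in BMDM (background 37.1%), and Cacna1d, Cacnb2, Clcn4-2, Kcnj2, Kcnk6 and Kcnma1 were higher in BSM (background 10.9%). After upper quartile scaling 1 was higher in BMDM (18.7% of all tested genes) and 8 in BSM (17.6%). All 12 genes tested in both tables had the same sign. Of these, 3 were higher in BMDM (Clic1, Clic4 and Kcne3) and 4 in BSM (Cacnb2, Clcn4-2, Kcnj2 and Kcnk6) in both tables, and no gene had opposite signs beyond 1 on the log2 scale. With an FPKM minimum of 1, 25 ion channel genes among 9637 were tested and 11 passed (44.9% of all), of which BMDM had the higher level in 4 (37.2%) and BSM in 7 (7.66%). With the 9637 highest genes of ALEXA-Seq, 29 were tested and 15 passed (38.8% of all), 5 higher in BMDM (29%) and 10 higher in BSM (9.74%). Genes under an FPKM of 3 are described below by these wider fits.

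**Figure D3:**
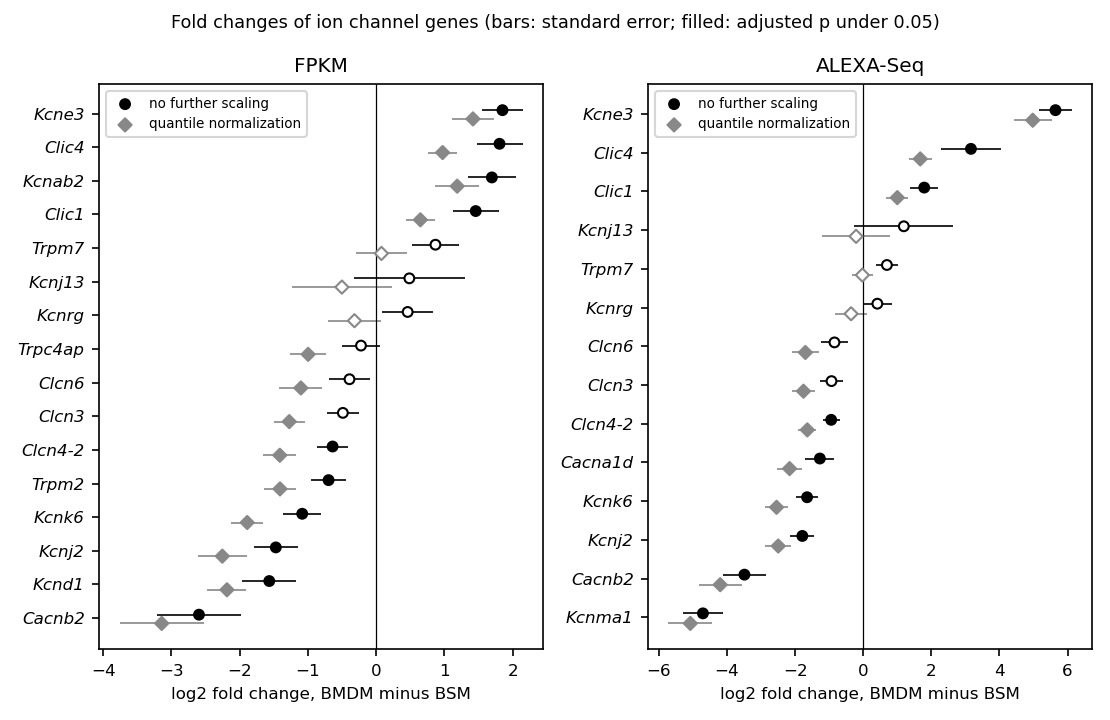
Log2 fold change (BMDM minus BSM) with its standard error for the tested ion channel genes in the FPKM (left) and ALEXA-Seq (right) fits, with black circles for values without further scaling, grey diamonds for quantile normalization, and filled symbols for an adjusted p-value under 0.05. Kcne3 has the highest value in both (1.85 and 5.65), and Cacnb2 is the lowest in FPKM (-2.60) and Kcnma1 in ALEXA-Seq (-4.71).

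Promoter sequences are shown for genes that differed in both tables, or strongly in ALEXA-Seq (Kcnma1, whose FPKM was under the minimum of 3), and that have a single start site in the RefSeq table. Clic1 and Clic4 were higher in BMDM, and Kcnj2 and Kcnma1 in BSM. They are from build GRCm38.p6 and span 300 bases, most of them before the start site, on the strand of the gene. RefSeq windows were matched to 127 of the 167 genes. Capitals mark GAGGAA, the core of the PU box bound by the myeloid factor PU.1, and GGGCGG, the GC box bound by Sp factors, or their reverse complements TTCCTC and CCGCCC. The windows lie at chr17:35049993-35050292 (plus strand), chr4:135272711-135273010 (minus), chr11:111065914-111066213 (plus) and chr14:24004156-24004455 (minus).
Clic1: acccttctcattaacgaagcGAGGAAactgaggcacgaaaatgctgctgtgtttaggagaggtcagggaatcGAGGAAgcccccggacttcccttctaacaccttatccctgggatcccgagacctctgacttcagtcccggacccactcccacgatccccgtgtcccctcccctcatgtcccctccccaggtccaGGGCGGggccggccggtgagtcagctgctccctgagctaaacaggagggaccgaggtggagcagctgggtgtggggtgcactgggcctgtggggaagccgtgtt
Clic4: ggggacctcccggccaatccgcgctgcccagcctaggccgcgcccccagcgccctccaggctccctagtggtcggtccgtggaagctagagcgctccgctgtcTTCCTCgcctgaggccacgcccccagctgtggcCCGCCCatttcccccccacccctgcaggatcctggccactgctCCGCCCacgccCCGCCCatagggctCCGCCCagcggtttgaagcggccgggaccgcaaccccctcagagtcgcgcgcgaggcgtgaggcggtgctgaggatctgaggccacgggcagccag
Kcnj2: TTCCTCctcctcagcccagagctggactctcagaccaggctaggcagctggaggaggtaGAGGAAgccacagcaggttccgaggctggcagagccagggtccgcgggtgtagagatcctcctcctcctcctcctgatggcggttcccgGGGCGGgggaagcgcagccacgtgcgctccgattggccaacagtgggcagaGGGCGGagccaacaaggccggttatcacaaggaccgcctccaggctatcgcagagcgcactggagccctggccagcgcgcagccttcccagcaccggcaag
Kcnma1: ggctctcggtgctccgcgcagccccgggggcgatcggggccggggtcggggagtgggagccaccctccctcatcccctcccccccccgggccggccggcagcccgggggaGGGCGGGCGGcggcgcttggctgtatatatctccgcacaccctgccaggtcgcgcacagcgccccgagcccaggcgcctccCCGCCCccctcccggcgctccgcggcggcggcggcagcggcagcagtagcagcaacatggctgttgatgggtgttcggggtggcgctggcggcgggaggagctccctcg
The PU box occurred 2 times in the window of Clic1, 1 time in that of Clic4, 2 times in that of Kcnj2 and 0 times in that of Kcnma1. The GC box occurred 1, 4, 2 and 3 times in the same order, overlapping matches included. Among all 32851 windows, 28.3% held the PU box and 35.7% the GC box. These matches are letters in a window and were not tested as binding sites.

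The inward rectifier Kcnj2, which sets the resting potential of many cells, was among the 2 most abundant ion channel genes of BSM. Its FPKM was 10.9, 4.70 and 5.52 in BMDM and 24.5, 18.4 and 18.0 in BSM. All BSM libraries were above all BMDM libraries, and replicate 1 was the highest of each cell type. The log2 fold change was -1.47 (SE 0.33, adjusted p-value 0.00674 by limma) in FPKM and -1.79 (SE 0.35, adjusted p-value 0.00614) in ALEXA-Seq, and the gene passed in all 17 fits of each table. In FPKM the value ranged from -2.65 to -1.26 over those fits. Kcnj2 lies on chromosome 11, 110927478 to 110938135 in mm9.

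Kcnj13, an inward rectifier with low conductance known from transporting epithelia, had a level in BSM that depended on 1 library. Its FPKM was 8.95, 3.34 and 5.66 in BMDM and 0.135, 10.9 and 6.75 in BSM. The groups overlapped, since BSM replicate 1 was the lowest and BSM replicate 2 the highest of all libraries. The log2 fold change was 0.49 (SE 0.81, adjusted p-value 0.632 by limma), and it was -0.54 without BSM replicate 1. With library quality weights the ALEXA-Seq value was -0.79, adjusted p-value 0.0137 by limma. This was the only fit in which the gene passed, 1 of 17 in ALEXA-Seq and 0 of 17 in FPKM. In that fit 84.3% of all tested genes passed, and the estimation of the weights stopped before it converged. The whole span of Kcnj13 lies within Gigyf2, on the opposite strand in GENCODE M21, and 49.4% of its longest transcript is shared with a Gigyf2 transcript. Gigyf2 had an FPKM of 11.3, 10.6 and 11.7 in BMDM and 6.22, 6.87 and 6.53 in BSM, and whether the authors' counting used strand is not given in the sources used here, so the level of Kcnj13 is uncertain. Kcnj10, the inward rectifier of glia, was chosen after its values were seen. It had 0.0365, 0.667 and 0.0483 in BMDM and 0, 1.25 and 0.762 in BSM, and its groups overlapped.

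Of the tandem-pore channels only Kcnk6 reached an FPKM of 3. Kcnk6, a leak channel also known in macrophages, had an FPKM of 1.41, 1.61 and 1.30 in BMDM and 2.71, 4.99 and 5.20 in BSM. Every BSM library was above every BMDM library, BSM replicate 1 being nearest to them. Its log2 fold change was -1.08 (SE 0.28, adjusted p-value 0.0131 by limma) in FPKM and -1.65 (SE 0.33, adjusted p-value 0.00675) in ALEXA-Seq, where it passed in all 17 fits. In FPKM it was -1.04 without BMDM replicate 3, -0.98 without BSM replicate 2 and -0.95 without BSM replicate 3 (adjusted p-values 0.0586, 0.0559 and 0.0589). Kcnk13, known as a main source of the leak current of microglia, was under the FPKM minimum of 3. It was at 0.0192, 0 and 0 in BMDM and at 0.0874, 1.01 and 0.791 in BSM. The libraries did not overlap, but BSM replicate 1 was far below the other BSM libraries. With an FPKM minimum of 1 its log2 fold change was -0.65 (adjusted p-value 0.0824), and in the wider ALEXA-Seq fit it was -3.09 (adjusted p-value 0.0277).

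Among voltage-gated and calcium-activated potassium channels, Kcnd1 and Kcnma1 were the only genes to reach an FPKM of 1. Kcnd1, a rapidly inactivating (A-type) channel, had an FPKM of 0.188, 0.0195 and 0.577 in BMDM and 1.23, 4.27 and 3.21 in BSM. Its groups did not overlap. In the fit it had a log2 fold change of -1.57 (SE 0.40, adjusted p-value 0.0121 by limma), and it passed in all 17 fits, from -3.23 to -1.31. Kcnma1, the large-conductance calcium-activated channel, was listed at 0 in 2 BMDM libraries and at 0.00397 in the other, and its FPKM was 2.65, 1.04 and 1.12 in BSM. No BMDM library came near the BSM libraries, of which replicate 1 was more than 2-fold above the others. In ALEXA-Seq it had 0.0829, 0 and 0 in BMDM and 46.0, 19.6 and 19.0 in BSM, with a log2 fold change of -4.71 (SE 0.60, adjusted p-value 0.000927). With an FPKM minimum of 1 the log2 fold change was -1.32 (adjusted p-value 0.00586).

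Kcna3 and Kcnn4 encode the voltage-gated and the intermediate-conductance calcium-activated potassium channels best known from activated T cells and microglia. Kcna3 was at an FPKM of 0.168, 0.673 and 0.435 in BMDM and at 0, 0.0118 and 0.0668 in BSM. All BMDM libraries were above all BSM libraries, at levels under 1. In ALEXA-Seq its values were 3.59, 17.0 and 9.94 in BMDM and 0, 0.563 and 1.91 in BSM, and in the wider fit its log2 fold change was 2.54 (adjusted p-value 0.0326 by limma). Kcnn4 was at most 0.119 in any BMDM library and 0.0101 in any BSM library, and BMDM replicate 1 (0.00590) lay below BSM replicate 3. Kcnq1 was at most 0.0181 in any library. BMDM replicate 2 had the highest Kcna3 level and also the highest sums of granulocyte markers (145.8) and lymphocyte markers (3.16, against at most 0.0793 in BSM), whose part in it was not tested. In the other BMDM libraries Kcna3 was above every BSM library. Their sums of lymphocyte markers (0.230 and 0.639) and granulocyte markers (13.4 and 15.3) were above every BSM library too.

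**Figure D4:**
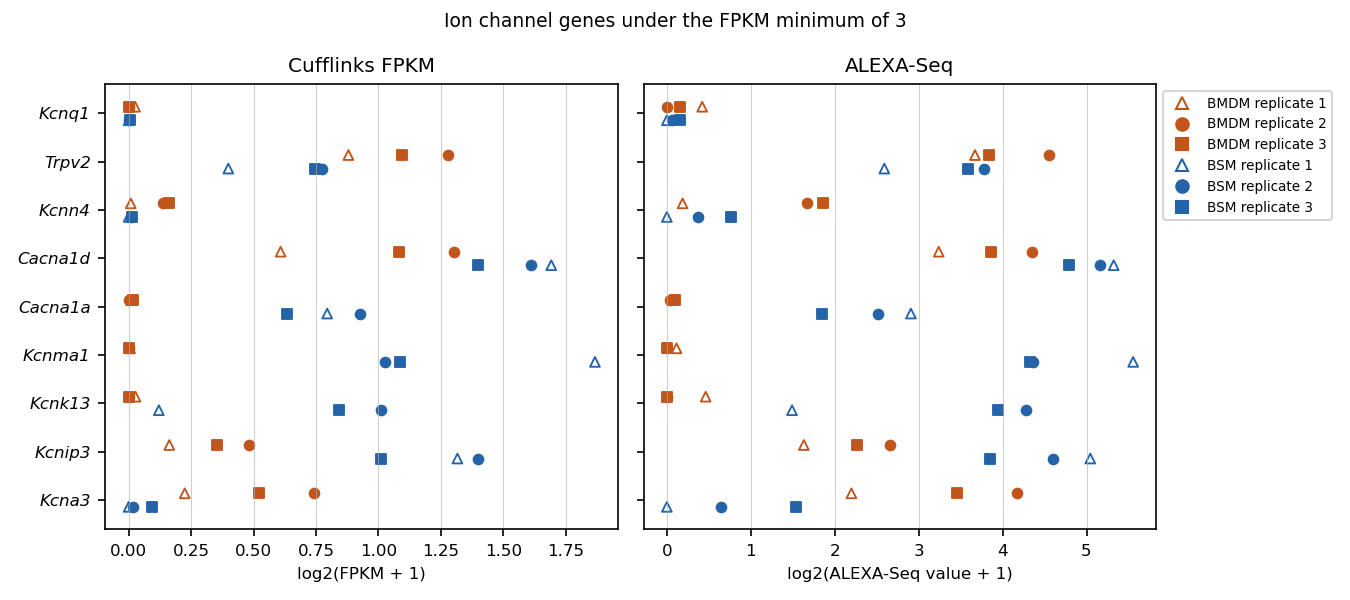
Levels of 9 ion channel genes under the FPKM minimum of 3, as log2(FPKM + 1) in the left panel and log2(ALEXA-Seq value + 1) in the right, with 1 symbol per library (BMDM in orange, BSM in blue, open triangles for replicate 1). Kcnma1 and Cacna1a sit near 0 in all BMDM libraries and above it in all BSM libraries, and Kcna3 is higher in all BMDM libraries. Kcnip3 and Cacna1a were added after their values were seen.

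Of the 3 accessory or regulatory genes of potassium channels in the FPKM fit, Kcne3 and Kcnab2 were higher in BMDM and Kcnrg did not pass. Kcne3, a single-pass subunit that modulates voltage-gated channels, had an FPKM of 2.36, 2.19 and 3.44 in BMDM and was listed at 0, 0 and 0.0121 in BSM. It was present in all BMDM libraries and at or near 0 in all BSM libraries. Its log2 fold change was 1.85 (SE 0.30, adjusted p-value 0.00160 by limma) in FPKM and 5.65 (SE 0.48, adjusted p-value 0.000184) in ALEXA-Seq, and it passed in all 17 fits of each table. The log2(FPKM + 1) scale compresses this change, since the levels are close to the pseudocount of 1. Kcne3 lies on chromosome 7, 107327207 to 107333374 in mm9.

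Kcnab2, the beta subunit that binds the inside of voltage-gated channels, had an FPKM of 1.25, 3.23 and 2.81 in BMDM and 0, 0.00305 and 0.0645 in BSM. No BSM library came near a BMDM library. Its log2 fold change was 1.70 (SE 0.35, adjusted p-value 0.00492 by limma), and it ranged from 1.19 to 4.30 over the 17 fits, in all of which it passed. Kcnrg, a regulator of potassium channel assembly, was at 11.8, 5.95 and 7.77 in BMDM and 3.26, 6.16 and 8.81 in BSM. The libraries overlapped, and the log2 fold change was 0.46 (SE 0.37, adjusted p-value 0.320), turning to -0.24 under upper quartile scaling. The whole of Kcnrg lies within another gene of the FPKM table, ENSMUSG00000087313, which was at 54.5, 31.7 and 55.0 in BMDM and 24.5, 37.3 and 58.8 in BSM, so its level is uncertain. Kcnip3, a calcium-binding protein that modulates A-type channels, was chosen after its values were seen. It was at 0.119, 0.396 and 0.278 in BMDM and 1.49, 1.64 and 1.01 in BSM, without overlap, and with an FPKM minimum of 1 its log2 fold change was -0.91 (adjusted p-value 0.0127).

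Trpm7, a magnesium- and calcium-permeable channel joined to a kinase, was the most abundant ion channel gene of every BMDM library and of BSM replicate 2. Its FPKM was 30.3, 22.7 and 26.9 in BMDM and 8.10, 19.9 and 16.9 in BSM. The groups did not overlap, BSM replicate 1 being the lowest. The log2 fold change was 0.87 (SE 0.34, adjusted p-value 0.0616 by limma) in FPKM and 0.70 (SE 0.33, adjusted p-value 0.116) in ALEXA-Seq, so it did not pass. Without BSM replicate 2 the FPKM value was 1.10 (adjusted p-value 0.0401). It is close to the shift of all genes, and was 0.077 with quantile normalization and -0.38 when libraries had the same sum. Trpm2, a calcium-permeable channel opened by ADP-ribose under oxidative stress, was at 1.71, 1.43 and 1.04 in BMDM and 2.90, 3.25 and 2.45 in BSM. All BSM libraries were above all BMDM libraries, with a log2 fold change of -0.70 (SE 0.25, adjusted p-value 0.0467), which passed in 9 of the 17 fits. It did not pass after leaving out any library other than BSM replicate 1, with values from -0.79 to -0.59. With the replicate number as a block, which also blocks sex, its adjusted p-value was 0.0642, and in the wider ALEXA-Seq fit the log2 fold change of -0.99 did not pass (adjusted p-value 0.0856).

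Trpv2, a calcium-permeable channel of macrophages used in phagocytosis, had an FPKM of 0.840, 1.43 and 1.13 in BMDM and 0.319, 0.711 and 0.676 in BSM. The groups did not overlap in FPKM, but in ALEXA-Seq BMDM replicate 1 (11.7) lay below BSM replicate 2 (12.7). With an FPKM minimum of 1 the log2 fold change was 0.44 (adjusted p-value 0.149 by limma). Trpc2 was chosen after its values were seen, and with 1.40, 2.42 and 2.10 in BMDM and 0.726, 0.960 and 1.13 in BSM it had no overlap either. However, 97.6% of its longest transcript is shared with Xntrpc, and its span overlaps Rnf121 in part, so its level is uncertain. Trpm4, Trpv4 and Trpc6 were at most 0.0886, 0.196 and 0.0186 in any library. Trpc4ap, which binds TRP channels and is not a channel itself, was at 4.49, 4.67 and 6.20 in BMDM and 4.53, 8.84 and 5.54 in BSM. Its groups overlapped, and the log2 fold change was -0.22 (SE 0.29, adjusted p-value 0.526), beside -0.997 (adjusted p-value 0.0183) under quantile normalization. ALEXA-Seq gave the other sign, with 25.9, 27.5 and 31.0 in BMDM and 15.5, 24.1 and 23.3 in BSM. There all BMDM libraries were above all BSM libraries, and the log2 fold change in the wider fit was 0.43 (adjusted p-value 0.325).

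In BSM the calcium channel gene with the highest level was an accessory subunit, while in BMDM the pore gene Cacna1d was above it. Cacnb2, a beta subunit that carries the pore to the membrane, had an FPKM of 0.247, 0.261 and 0.612 in BMDM and 23.7, 3.90 and 3.63 in BSM. All BSM libraries were above all BMDM libraries, and BSM replicate 1 was far above the others. The log2 fold change was -2.60 (SE 0.61, adjusted p-value 0.00906 by limma) in FPKM and -3.49 (SE 0.63, adjusted p-value 0.00441) in ALEXA-Seq. Without both male libraries, an alternative chosen after seeing the data, it was -1.74 (adjusted p-value 0.00239) and -2.76 (adjusted p-value 0.00194). The gene passed in all 17 fits of ALEXA-Seq and in 16 of 17 in FPKM. In FPKM it did not pass with no filter (adjusted p-value 0.0503 by limma). Cacnb2 lies on chromosome 2, 14525933 to 14909535 in mm9. Cacnb3 was listed at 0 in every library of both tables, and Cacna2d4 was at most 0.0825.

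Cacna1d, the pore of an L-type channel, had an FPKM of 0.525, 1.47 and 1.12 in BMDM and 2.23, 2.05 and 1.63 in BSM. Its groups did not overlap, though BSM replicate 3 lay close to BMDM replicate 2. In ALEXA-Seq the log2 fold change was -1.27 (SE 0.43, adjusted p-value 0.0460 by limma), and it did not pass without BMDM replicate 1 (-0.98), BMDM replicate 3 (-1.30), BSM replicate 2 (-1.24) or BSM replicate 3 (-1.42), nor with a replicate block (adjusted p-value 0.0791), while in FPKM with a minimum of 1 it was -0.57 (adjusted p-value 0.105). Cacna1a, the pore of the P/Q-type channel of nerve terminals, was chosen after its values were seen. It was at 0.00628, 0 and 0.0129 in BMDM and 0.735, 0.899 and 0.554 in BSM. All BSM libraries were above all BMDM libraries, at levels under 1. Neuronal markers summed to 0.00309, 0.232 and 0.343 in BSM and to 0.0396, 0 and 0.0969 in BMDM, and their part in this was not tested.

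Among the chloride transport genes in the FPKM fit, both Clic genes were higher in BMDM, and of 3 Clcn genes 1 was higher in BSM and 2 did not pass. Clic1, a protein that exists in soluble and membrane forms, had an FPKM of 4.77, 6.46 and 7.37 in BMDM and 0.630, 2.22 and 2.31 in BSM. The mean was 6.20 ± 1.32 in BMDM and 1.72 ± 0.943 in BSM (SD, n = 3). All BMDM libraries were above all BSM libraries, and the log2 fold change was 1.46 (SE 0.34, adjusted p-value 0.00834 by limma) in FPKM and 1.79 (SE 0.41, adjusted p-value 0.0114) in ALEXA-Seq. Clic4, its relative, was at 3.45, 5.50 and 4.79 in BMDM and 0.0368, 0.986 and 0.896 in BSM. Its groups did not overlap, BSM replicate 1 being far below the others, and the log2 fold change was 1.81 (SE 0.34, adjusted p-value 0.00317) in FPKM and 3.16 (SE 0.88, adjusted p-value 0.0247) in ALEXA-Seq. The ALEXA-Seq call of Clic4 was lost without BMDM replicate 1 (3.37), 2 (2.99) or 3 (3.13), and that of Clic1 without BMDM replicate 3 (1.72). After scaling to the same sum, neither gene passed in either table. After upper quartile scaling Clic1 did not pass in either table, and Clic4 did not pass in ALEXA-Seq. In ALEXA-Seq, Clic4 passed in 10 of 17 fits, and its call was also lost with a pseudocount of 0.1 and with no filter. Of the transcript of Clic4, 18.5% is shared with Gm8388, whose part in its level was not tested.

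The CLC genes that reached an FPKM of 3 belong to the exchangers of endosomes and lysosomes. Clcn4-2 had an FPKM of 4.36, 3.17 and 3.82 in BMDM and 6.92, 6.68 and 5.68 in BSM. Its groups did not overlap, with a mean of 3.78 ± 0.599 in BMDM and 6.43 ± 0.653 in BSM (SD, n = 3). The log2 fold change was -0.64 (SE 0.23, adjusted p-value 0.0437 by limma) in FPKM and -0.94 (SE 0.25, adjusted p-value 0.0202) in ALEXA-Seq, and it passed in 8 of 17 and 14 of 17 fits. In FPKM it did not pass after leaving out any library other than BSM replicate 1 (-0.72 to -0.54), nor in ALEXA-Seq without BMDM replicate 2 (-0.87), BMDM replicate 3 (-0.93) or BSM replicate 2 (-0.96). With a replicate block its FPKM adjusted p-value was 0.0672. Clcn3, at 4.12, 3.58 and 4.27 in BMDM and 5.04, 5.75 and 7.34 in BSM, had no overlap either, but its log2 fold change of -0.49 (SE 0.23, adjusted p-value 0.109) did not pass. Without BSM replicate 1 it was -0.59 (adjusted p-value 0.0349). Clcn6 was at 1.35, 1.29 and 1.60 in BMDM and 3.56, 1.69 and 1.58 in BSM, where BSM replicate 1 was the highest and BSM replicate 3 lay within the BMDM libraries, and its log2 fold change of -0.39 (adjusted p-value 0.305) did not pass. In ALEXA-Seq, Clcn6 was at 15.8, 15.0 and 16.8 in BMDM and 45.4, 24.6 and 22.4 in BSM, without overlap, and its log2 fold change of -0.84 (adjusted p-value 0.123) did not pass either. With quantile normalization in FPKM, Clcn3 (-1.27) and Clcn6 (-1.10) both passed. Clcn7, the lysosomal exchanger, was at 0.400, 0.406 and 0.447 in BMDM and 1.93, 0.250 and 0.409 in BSM. Again BSM replicate 1 alone was high. Clcn5 was at 2.13, 1.34 and 2.29 in BMDM and 1.18, 2.53 and 2.51 in BSM, and its groups overlapped.

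Channels outside these families were taken from a list of 42 genes, of which 41 had an entry and 15 reached an FPKM of 3. In the limma fit 6 of the 15 were higher in BMDM, 2 were higher in BSM and 7 did not pass, beside 45.3% and 9.22% of all tested genes, and their median log2 fold change was 0.88, beside 0.81 for all. The genes higher in BMDM were Lrrc8c, Itpr1, Vdac1, Lrrc8d, Vdac3 and Stim2. Lrrc8c, a subunit of the volume-regulated anion channel, had an FPKM of 5.17, 6.72 and 8.96 in BMDM and 0.00393, 0.120 and 0.357 in BSM. Itpr1, an inositol trisphosphate receptor that releases calcium from the endoplasmic reticulum, was at 4.45, 5.87 and 5.76 in BMDM and 1.30, 0.250 and 0.311 in BSM. In both genes all BMDM libraries were above all BSM libraries, with log2 fold changes of 2.76 (adjusted p-value 0.000187) and 2.02 (adjusted p-value 0.00133). Itpr2, another receptor of that family, was at 3.52, 5.31 and 3.91 in BMDM and 8.12, 13.2 and 13.3 in BSM. Pkd2, a calcium-permeable channel of cilia and the endoplasmic reticulum, was at 2.01, 1.13 and 1.71 in BMDM and 3.65, 4.70 and 5.38 in BSM. Both were higher in every BSM library, with log2 fold changes of -1.24 (adjusted p-value 0.00699) and -1.09 (adjusted p-value 0.00906).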

How the data were processed

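RNA-Seq of 3 BMDM and 3 BSM libraries was analysed, grouped by the sample labels. The authors aligned paired-end reads with TopHat and deposited FPKM from Cufflinks. The submitters' processing notes name TopHat 1.3.1, Bowtie 0.12.7, Cufflinks 1.0.3, CASAVA 1.7.0 and build mm9. The authors also deposited an ALEXA-Seq expression signal for each gene, whose unit and normalization are not given in the sources used here. It was treated as linear. Neither table holds counts, so depth per gene is unknown and no count model was used. That the pools of a cell type were separate is taken from the labels, which number them as biological replicates.

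Genes reaching an FPKM of 3 in any library (6364), and as many genes by highest ALEXA-Seq value, were fitted in limma 3.58.1 (R 4.3.3) with a mean-variance trend on log2(value + 1), and p-values were adjusted by Benjamini-Hochberg over all of them, with 0.05 as the threshold. The step was tested on simulated data. Overlaps used the mm9 spans of the FPKM table. Shared transcripts were found with blastn 2.17.0 and strands were taken from GENCODE M21, whose coordinates were not mixed with mm9. Further software was numpy 2.4.6, pandas 2.3.3 and matplotlib 3.10.9 under Python 3.11.15.

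Genes were named if they entered the FPKM fit, passed in ALEXA-Seq, were known in myeloid cells, or had opposite signs in the tables. Of other channels, the examples described were the 2 in each direction with the largest fold change among those that passed. Genes outside the rule are said to be chosen after their values were seen, and 1 gene under the rule is not reported here. The members and lists were chosen with earlier results of these data known. Alternatives were an FPKM minimum of 1, no minimum, a pseudocount of 0.1, upper quartile, quantile and same-sum scaling, no trend, library quality weights, a replicate block and leaving out each library, and, chosen after seeing the data, both male libraries.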

Additional observations from a re-analysis of the deposited data

How the results depend on the processing

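Among the ion channel genes the count of calls moved with scaling and filters. In FPKM the genes higher in BMDM numbered 2 after scaling to the same sum (15.3% of all tested genes). In ALEXA-Seq the number called was 15 with the wider gene selection (38.8% of all tested genes), 5 higher in BMDM (29%) and 10 in BSM (9.74%). Without a filter 10 were higher in BSM (3.83%), while 1 was higher in BMDM after upper quartile scaling (18.7%) or scaling to the same sum (13.3%). Leaving out 1 library at a time gave 7 to 11 calls in FPKM (4 to 5 higher in BMDM, 3 to 7 in BSM) and 5 to 10 in ALEXA-Seq (1 to 3 and 4 to 7). The lowest count in BSM, 3, came without BMDM replicate 3, BSM replicate 2 or BSM replicate 3, and the ALEXA-Seq lows of 5 and 1 without BMDM replicate 3. Of all tested genes, 39.3% to 61.8% passed in the FPKM fits without 1 library (32% to 50.2% higher in BMDM, 7.24% to 11.6% in BSM). In ALEXA-Seq these shares were 31% to 62.6% (22.8% to 48.4% and 8.16% to 14.2%). With library quality weights, whose estimation stopped before it converged, 12 and 13 ion channel genes were called, beside 73.9% and 84.3% of all genes.

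Whether the replicate numbers pair the libraries cannot be settled from 3 libraries of each cell type. Deviations of same-numbered libraries correlated at -0.019, -0.0084 and 0.13 in FPKM and 0.015, 0.043 and 0.10 in ALEXA-Seq. Those of differently numbered libraries correlated at -0.11 to 0.068 in FPKM and -0.076 to 0.022 in ALEXA-Seq. With the replicate number as a block 8 genes were called in each table, 4 higher in BMDM and 4 in BSM in FPKM, and 3 and 5 in ALEXA-Seq. Of all tested genes 54.5% were called in FPKM (45.6% higher in BMDM, 8.89% in BSM) and 45.3% in ALEXA-Seq (35.4% and 9.96%). The block ended the calls of Trpm2 and Clcn4-2 in FPKM (adjusted p-values 0.0642 and 0.0672) and of Cacna1d in ALEXA-Seq (0.0791).

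Directions turned for 4 genes that did not pass in the reported fits. For Kcnj13 in FPKM the log2 fold change was -0.12 with upper quartile scaling, -0.50 with quantile normalization, -0.46 with the same sum, -0.51 with weights, -0.54 without BSM replicate 1 and -0.84 without both male libraries, and in ALEXA-Seq it was -0.21 (quantile), -0.024 (same sum), -0.79 (weights), -0.63 and -0.96. Leaving out 1 library at a time gave -0.54 to 1.15 in FPKM and -0.63 to 2.28 in ALEXA-Seq. For Kcnrg it was -0.24, -0.32, -0.68 and -0.10 in FPKM (upper quartile, quantile, same sum, without both male libraries) and -0.29, -0.36, -0.86 and -0.24 in ALEXA-Seq. Trpm7 had -0.38 (same sum) in FPKM and -0.024 (quantile) and -0.57 (same sum) in ALEXA-Seq, and Trpc4ap had -0.40 to 0.014 when 1 library was left out, the highest without BSM replicate 2. The cause was not tested. Over the genes tested, 386 values kept direction and side of the threshold, 45 no longer passed, 26 newly passed and 23 turned. Depth per gene is unknown, which limits what can be said of genes under an FPKM of 1.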
